A study of Mus musculus with 2 samples.

Results

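The genes described here are 10 immediate early genes of the mouse, Fos, Fosb, Jun, Junb, Jund, Egr1, Ier2, Ier3, Atf3 and Dusp1, found by their symbols among the 32285 genes of the deposited tables. They were named as a list, with earlier results of these data already known, and all 10 were found. They were measured by droplet single-cell RNA sequencing in whole dissociated testis, with 1 library from Dot1L cKO testes (Dot1L fl/delta; Ddx4-Cre+) and 1 from control testes (Dot1L fl/+; Cre-). Ddx4-Cre acts in germ cells, so the floxed allele of somatic cells was not its target. Somatic cells of the 2 genotypes still differ, since those of the cKO hold the delta allele and those of the control a + allele. The labels used here do not give the number, age or strain of the mice behind a library. Their levels are described here by germ cell stage and somatic cell type and between the 2 libraries, because these genes respond to how a tissue is handled. Both testes were taken apart by the same enzyme steps according to the labels, collagenase at body temperature and then trypsin at room temperature.

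Immediate early genes are transcribed within minutes of a stimulus, without new protein synthesis, and their messengers are short-lived. Growth factors, kinase cascades of the MAPK family and mechanical or thermal stress all induce them, and enzymatic dissociation of a tissue is a well known trigger in single-cell work. FOS, FOSB, JUN, JUNB and JUND are the subunits of the transcription factor AP-1, a dimer of a Fos or Jun protein with a Jun partner. EGR1 is a zinc finger factor, ATF3 a stress-induced basic leucine zipper factor, IER2 and IER3 are small proteins named for their early induction, and DUSP1 is the phosphatase that removes the activating phosphates from MAP kinases.

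Promoters are shown for Fos, Junb and Dusp1, which were among the genes with the most UMIs in interstitial cells and whose windows held matches to the motifs searched. Each window runs from 250 bases before to 50 bases after the RefSeq start (GRCm38.p6), written along the gene's own strand. Capitals mark TGACG on either strand, which is the first part of the cyclic AMP response element TGACGTCA, and the TATA motif TATAAA.
Fos, chr12:85473640-85473939, plus strand: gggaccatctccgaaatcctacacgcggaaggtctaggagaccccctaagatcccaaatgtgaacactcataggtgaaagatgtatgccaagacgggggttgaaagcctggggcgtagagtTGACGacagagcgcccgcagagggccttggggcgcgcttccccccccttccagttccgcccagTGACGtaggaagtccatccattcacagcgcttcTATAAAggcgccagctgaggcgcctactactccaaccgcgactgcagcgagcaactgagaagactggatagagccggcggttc
Junb, chr8:84978699-84978998, minus strand: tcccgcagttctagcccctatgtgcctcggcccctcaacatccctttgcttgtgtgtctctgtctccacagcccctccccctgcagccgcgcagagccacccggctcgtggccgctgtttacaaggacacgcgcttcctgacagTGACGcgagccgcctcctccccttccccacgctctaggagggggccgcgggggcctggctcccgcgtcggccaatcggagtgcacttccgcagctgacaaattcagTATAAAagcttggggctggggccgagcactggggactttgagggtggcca
Dusp1, chr17:26508423-26508722, minus strand: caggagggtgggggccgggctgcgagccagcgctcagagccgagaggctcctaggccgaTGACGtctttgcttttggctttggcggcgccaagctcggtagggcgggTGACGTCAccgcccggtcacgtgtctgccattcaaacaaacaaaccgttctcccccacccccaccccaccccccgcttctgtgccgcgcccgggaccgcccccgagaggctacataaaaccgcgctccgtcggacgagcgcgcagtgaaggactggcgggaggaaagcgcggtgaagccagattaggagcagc
RefSeq windows were found for 8 of the 10 genes, that is all but Egr1 and Ier2. TGACG, searched on both strands, was in 5 of these 8 windows (Fos, Fosb, Junb, Atf3 and Dusp1), against 20.8% of all 32851 windows in the table. In Fos it began 129 and 66 bases before the start, in Junb 106 and in Fosb 60 bases before it. The full TGACGTCA was in Dusp1 alone among them, 143 bases before the start, where it holds TGACG on both strands. It was in 1.79% of all windows. TATAAA was in Fos and Junb, against 13.6% of all windows. In Fos it began 33 bases before the start, and in Junb at the first base of the RefSeq start itself. Neither TGANTCA, the AP-1 motif (7.81% of all windows), nor the CArG box of serum response factor (1.63%) was in any of the 8. Bases outside these windows were not searched, so sites further from the start would be missed. The RefSeq starts of Jund and Junb lie upstream of the start in the gene models used for positions here. The TATAAA of Junb therefore lies before its gene-model start. Those of Fosb, Ier3, Atf3 and Dusp1 lie downstream of the gene-model start, and those of Fos and Jun fall on it.

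By the GENCODE vM21 gene models on GRCm38 (mm10), all 10 are protein-coding. Fos lies at chr12:85473890-85477273 on the plus strand with 4 exons, and Fosb at chr7:19302696-19310051 on the minus strand with 4. Jun (chr4:95049034-95052222, minus), Junb (chr8:84974484-84978718, minus), Jund (chr8:70698949-70700616, plus) and Ier2 (chr8:84661331-84662852, minus) have 1 exon each. Egr1 lies at chr18:34859823-34864984 (plus, 2 exons), Ier3 at chr17:35821684-35822923 (plus, 2 exons), Atf3 at chr1:191170296-191218039 (minus, 4 exons) and Dusp1 at chr17:26505590-26562128 (minus, 3 exons). A search for stretches at the 3′ end of each that also occur in transcripts of other genes found none. Dusp1 overlaps other annotated genes on its own strand, and Jun, Junb, Jund, Atf3 and Dusp1 have an annotated gene on the opposite strand. How the counting used strand is not given in the sources used here, so these 5 counts are uncertain to that extent.

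Depth was alike in both libraries. Captured transcripts were counted by their unique molecular identifiers (UMIs), 156518838 of them in cKO and 155487418 in control. The median barcode had 2188 UMIs in cKO and 2383.5 in control. The filters kept 17979 of 20601 barcodes in cKO and 15614 of 17408 in control. They fell into 24 clusters, named X-like where listed marker genes stood above the other clusters, and 102 barcodes occurred in both libraries. Each genotype is a single library, so what follows compares 2 libraries without any check by replicates, and no test was made. Levels are in CPM (counts-per-million, taken over the summed UMIs of a cell type in a library), and the 95% intervals, exact Poisson for levels and exact conditional binomial for ratios, cover counting error only. The log2 ratio is cKO over control. A gene was called measured in a cell type if both libraries together gave at least 50 UMIs there, and higher or lower from 1.5-fold. As a check of the labels, Dot1l itself had 5.82 CPM in cKO and 40.0 in control round spermatid-like cells, and 46.0 in cKO and 112 in control mid to late spermatocyte-like cells. In early spermatocyte-like cells it had 56.8 in cKO and 60.1 in control, and in Sertoli-like cells 9.33 in cKO and 29.7 in control. These 3′ UMIs check the deletion only indirectly, since the labels do not say where the floxed segment lies.

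The immediate early genes were highest in the interstitial cells. Together the 10 had 4411 CPM in cKO and 2307 in control mesenchymal-like cells, 2846 in cKO and 933 in control macrophage-like cells, and 640 in cKO and 754 in control Leydig-like cells. Sertoli-like cells, the somatic cells inside the tubule, had 111 in cKO and 39.6 in control. Spermatogonium-like cells had 88.5 in cKO and 64.3 in control, and the 4 later stages lay between 24.7 and 47.7 in cKO and between 12.9 and 22.7 in control. Interstitial cells were few, 788 of the kept cells in cKO and 256 in control, yet they held 96.1% of all Fos UMIs in cKO and 94.3% in control.

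**Figure D1:**
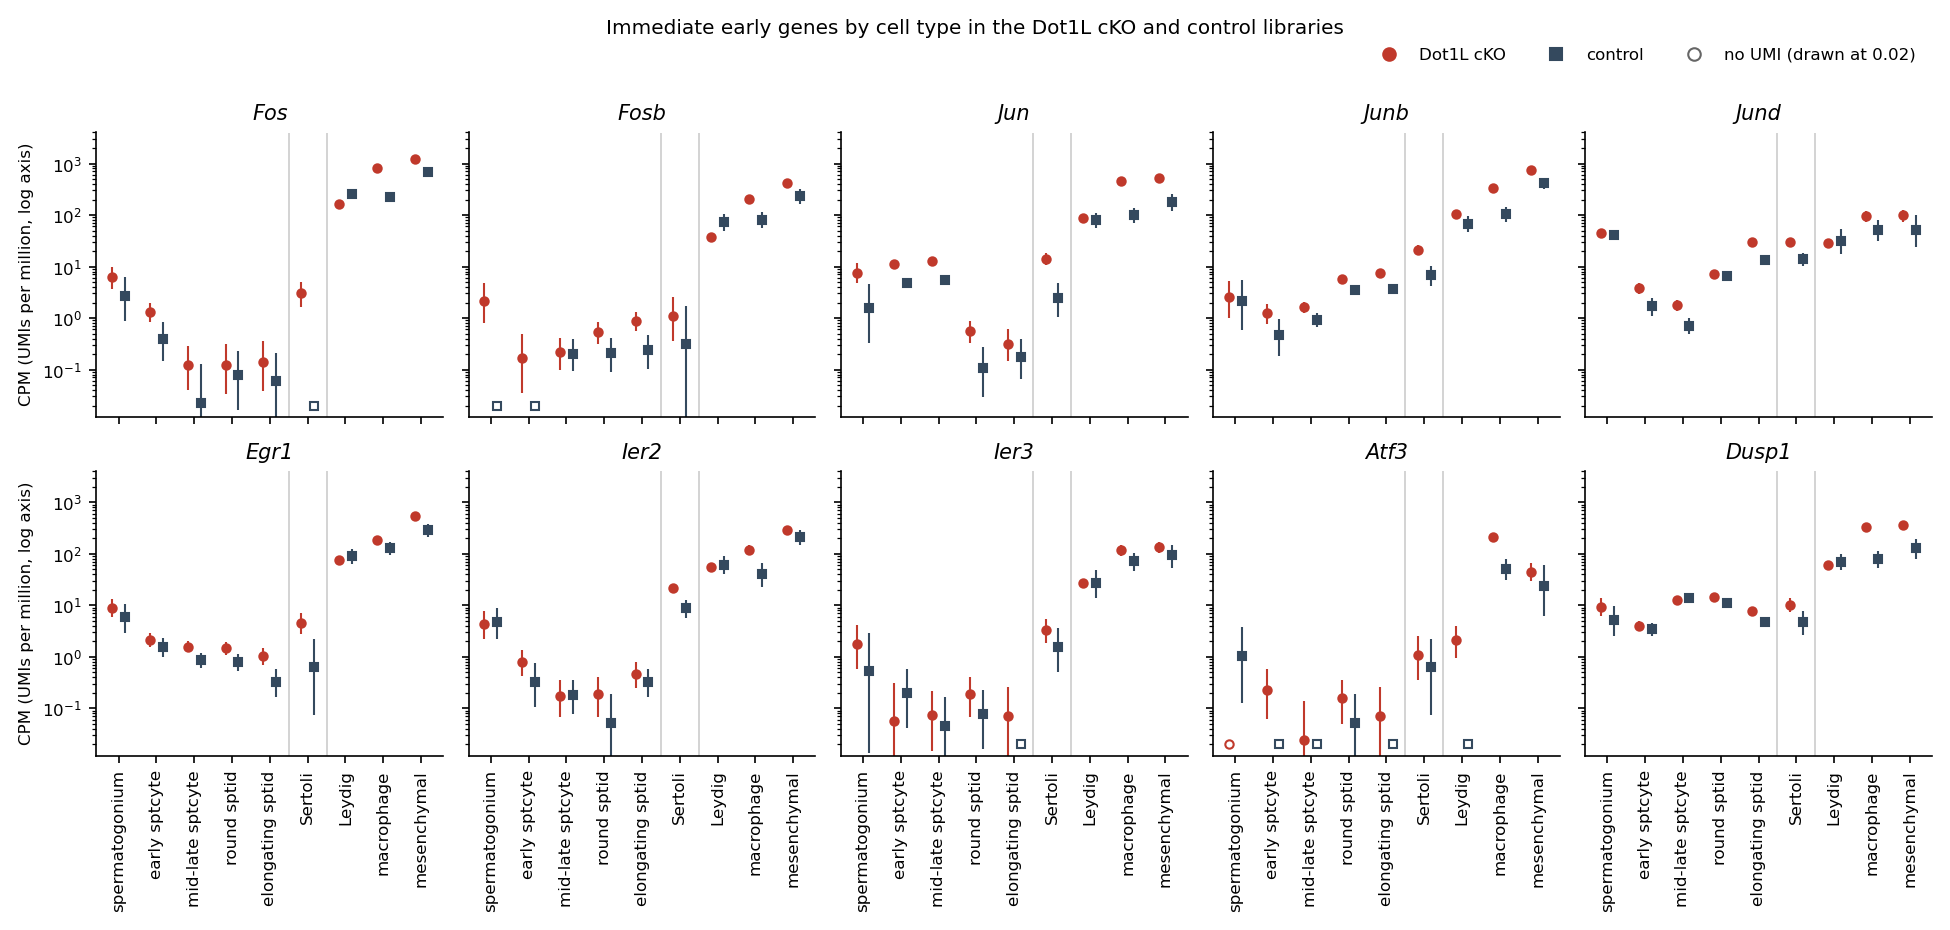
Level of each of the 10 genes in 9 cell types, with Dot1L cKO (circles) left of control (squares) in each type. The y axis is CPM on a log scale, bars are exact Poisson intervals for counting error (those that meet the lower edge go on below it), open symbols mark types with no UMI, and sptcyte and sptid stand for spermatocyte and spermatid. Fos spans from 0.0227 CPM in control mid to late spermatocyte-like cells to 1243 in cKO mesenchymal-like cells, while Jund stays between 0.705 and 98.2.

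In the 3 interstitial types Fos had the highest level of the AP-1 subunits in both libraries. It had 1243 CPM (1155 to 1335) in cKO and 690 (571 to 825) in control mesenchymal-like cells, 802 (735 to 873) in cKO and 226 (180 to 280) in control macrophage-like cells, and 162 (150 to 174) in cKO and 254 (209.5 to 306) in control Leydig-like cells. In control, the Leydig-like and macrophage-like levels lay within each other's counting intervals, while in cKO all 3 interstitial types lay apart. From mid to late spermatocyte-like cells on, Fos was close to nothing in both libraries, with 4 or 5 UMIs per stage in cKO and 1 to 3 in control. Sertoli-like cells had 14 Fos UMIs in cKO, or 3.04 CPM, and none in control, where 3 UMIs would have been 0.927 CPM. Whether these 14 came from free RNA was not tested.

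Fosb, which encodes another Fos protein, was likewise highest in mesenchymal-like cells, at lower levels. Mesenchymal-like cells had 423 CPM in cKO and 232 in control, macrophage-like cells 204 in cKO and 81.6 in control, and Leydig-like cells 36.8 in cKO and 72.7 in control. In elongating spermatid-like cells Fosb had 25 UMIs in cKO (0.878 CPM) and 8 in control (0.236), too few to be measured by the rule.

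Jun and Junb were high in the same interstitial cells and also had a germ cell level of their own. Jun had 529 CPM in cKO and 180 in control mesenchymal-like cells and 462 in cKO and 101 in control macrophage-like cells. Among germ cells it peaked in spermatocytes, at 13.04 (11.96 to 14.2) in cKO and 5.36 (4.70 to 6.09) in control mid to late spermatocyte-like cells, and was low in round spermatid-like cells at 0.558 in cKO and 0.105 in control. Junb ran the other way from spermatocytes to spermatids. It had 1.24 CPM in cKO and 0.458 in control early spermatocyte-like cells, and 7.34 in cKO and 3.72 in control elongating spermatid-like cells.

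Jund had the smallest share of its UMIs in interstitial cells among the 10, 12.9% in cKO and 4.13% in control. In interstitial cells it reached 98.2 CPM in cKO and 52.2 in control mesenchymal-like cells, with overlapping intervals for mesenchymal-like and macrophage-like cells in each library. Spermatogonium-like cells had 45.5 (37.9 to 54.2) in cKO and 40.6 (32.0 to 50.7) in control, against 28.1 in cKO and 31.8 in control Leydig-like cells, where the control intervals overlap. The level was lowest in mid to late spermatocyte-like cells, at 1.77 in cKO and 0.705 in control, and high again in elongating spermatid-like cells, at 29.5 in cKO and 13.1 in control. Germ cells held 71.4% of all Jund UMIs in cKO and 81.6% in control. Per Fos UMI, Jund had 210 UMIs in cKO and 222.5 in control elongating spermatid-like cells, against 0.0790 in cKO and 0.0756 in control mesenchymal-like cells. An estimate of free RNA from interstitial cells, in which every Fos UMI outside those cells is taken as free RNA, came to 0.0585% of these Jund UMIs in cKO and 0.0601% in control.

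Egr1 had 542 CPM in cKO and 290 in control mesenchymal-like cells, and 9.03 in cKO and 5.80 in control spermatogonium-like cells. Ier2 had 288 in cKO and 209 in control mesenchymal-like cells, and it was the member with the largest share of its UMIs in Sertoli-like cells, 15.2% in cKO and 19.0% in control. Ier3 reached 133 in cKO and 92.7 in control mesenchymal-like cells and was near nothing in germ cells, with 1 to 6 UMIs per stage in cKO and 0 to 3 in control.

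Atf3 was highest in macrophage-like cells. It had 216 CPM in cKO and 51.7 in control macrophage-like cells, 44.9 in cKO and 23.2 in control mesenchymal-like cells, and only 9 UMIs in cKO and none in control Leydig-like cells. Macrophage-like cells held 72.4% of all its UMIs in cKO and 65.5% in control. It was the only one of the 10 whose highest level was not in mesenchymal-like cells.

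Dusp1 was, with Jund, the main germ cell gene of the 10. It had 12.5 CPM (11.4 to 13.6) in cKO and 13.5 (12.5 to 14.7) in control mid to late spermatocyte-like cells, and 14.5 in cKO and 11.2 in control round spermatid-like cells. Germ cells held 59.5% of its UMIs in cKO and 86.0% in control. In interstitial cells it had 358 in cKO and 128 in control mesenchymal-like cells, and 324 in cKO and 78.9 in control macrophage-like cells.

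Between the libraries, with all cells of a type summed, macrophage-like cells had the largest median ratio of the cell types described. Without cells of 10000 or more UMIs the Leydig-like median (1.71) was above the macrophage-like one (0.88). With all cells, all 10 genes had more CPM in the cKO library, and 9 of 10 were 1.5-fold or more higher, where 22.2% of the 4049 genes measured in these cells were higher and 18.2% lower. The median log2 ratio of the 10 was 1.61, against 0.02 for all genes measured. Jun had the largest ratio at 2.20 (1.70 to 2.73), followed by Atf3 at 2.06 (1.37 to 2.84), Dusp1 at 2.04 (1.47 to 2.65) and Fos at 1.83 (1.49 to 2.18). Egr1 had the smallest at 0.50 (0.00 to 1.02). There were 187 cKO and 67 control cells, and the control number is under the 100 cells set as a minimum for a type of its own. The median mitochondrial share was 4.74% in cKO and 3.30% in control, and the spermatid transcripts Tnp1, Tnp2, Prm1 and Prm2 made up 2.02% of UMIs in cKO and 4.87% in control. Subtracting an estimate of free RNA from elongating spermatid-like cells moved none of these ratios outside its counting interval. Beyond that, the part of either in these ratios was not tested.

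In mesenchymal-like cells 9 genes were measured, with 50 or more UMIs, and 7 of these 9 were 1.5-fold or more higher in cKO, where 19.3% of 3221 genes were higher and 12.2% lower. Their median log2 ratio was 0.87, against 0.07 for all genes. Jun stood first again at 1.56 (1.02 to 2.14), then Dusp1 at 1.49 (0.85 to 2.19). Jund was at 0.91 (−0.11 to 2.11) on 59 cKO and 9 control UMIs, so that its counting interval includes 0. Egr1 was at 0.90 (0.47 to 1.36), Fosb at 0.87 (0.38 to 1.39), Junb at 0.87 (0.51 to 1.25) and Fos at 0.85 (0.57 to 1.14). Ier2 (0.46) and Ier3 (0.52) were under 1.5-fold, and Atf3, at 0.95 on 27 cKO and 4 control UMIs, was not measured. These were 169 cKO and 49 control cells, the control number again under 100, and the cluster also held markers of myoid and endothelial cells. Fos was itself among its 10 leading genes, although none of the 10 was used to form clusters.

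Leydig-like cells gave the opposite direction for the Fos genes when their UMIs were summed. Fos was at −0.65 (−0.94 to −0.35) and Fosb at −0.98 (−1.54 to −0.39), both counted as lower, while Junb was at 0.62 (0.09 to 1.20) and counted as higher. The other 6 measured genes were between −0.25 and 0.16. So 1 of 9 was higher, against 32.4% of 9134 genes, and 2 of 9 were lower, against 20% of them. The median was −0.18, against 0.14 for all genes.

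That result rested on the deepest cells. Cells with 10000 or more UMIs, 80 in cKO and 15 in control, held 83.4% of the Leydig-like UMIs in cKO and 55.2% in control. In the cKO library such cells had 524 CPM of the 10 genes and 0.501% of UMIs from the Leydig cell markers, and in control they had 1046 and 1.55%. Cells between 5000 and 10000 UMIs had 2644 in cKO and 1276 in control, and those below 5000 UMIs had 184 in cKO and 69.4 in control. Without the cells of 10000 or more UMIs, Fos had 343 CPM in cKO and 152 in control, a log2 ratio of 1.17, and Fosb turned to 0.99. All 7 genes still measured were then higher in cKO, with a median of 1.71, on as few as 3 control UMIs for Dusp1, where 18.5% of 3008 genes were higher and 10.2% lower, with a median of 0.05. Giving every Leydig-like cell equal weight put all 9 measured genes higher, with a median of 1.34, where 33% of 9134 genes were higher and 13.3% lower, with a median of 0.19. Fos in Leydig-like cells was also above 0 with types set by marker score (0.65) and with a 20% mitochondrial limit (0.41). A doublet caller removed 2.56% of cKO and 1.78% of control cells. Its cut was set at the 80th percentile of simulated doublets, so the 19.5% of these caught in cKO and 19.3% in control follow from that choice. Doublets may remain among the kept cells, and their number was not measured. Erythroid genes summed to 307 CPM in cKO and 0 in control Leydig-like cells. They were also higher in cKO early spermatocyte-like cells (34.6 in cKO, 1.11 in control) and elongating spermatid-like cells (26.0 in cKO, 1.39 in control). In Sertoli-like cells they went the other way, with 29.1 in cKO and 237 in control. Subtracting an estimate of free RNA from elongating spermatid-like cells moved no Leydig-like ratio outside its counting interval. Beyond that, the part of other cells' RNA in the Leydig-like values was not tested.

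**Figure D2:**
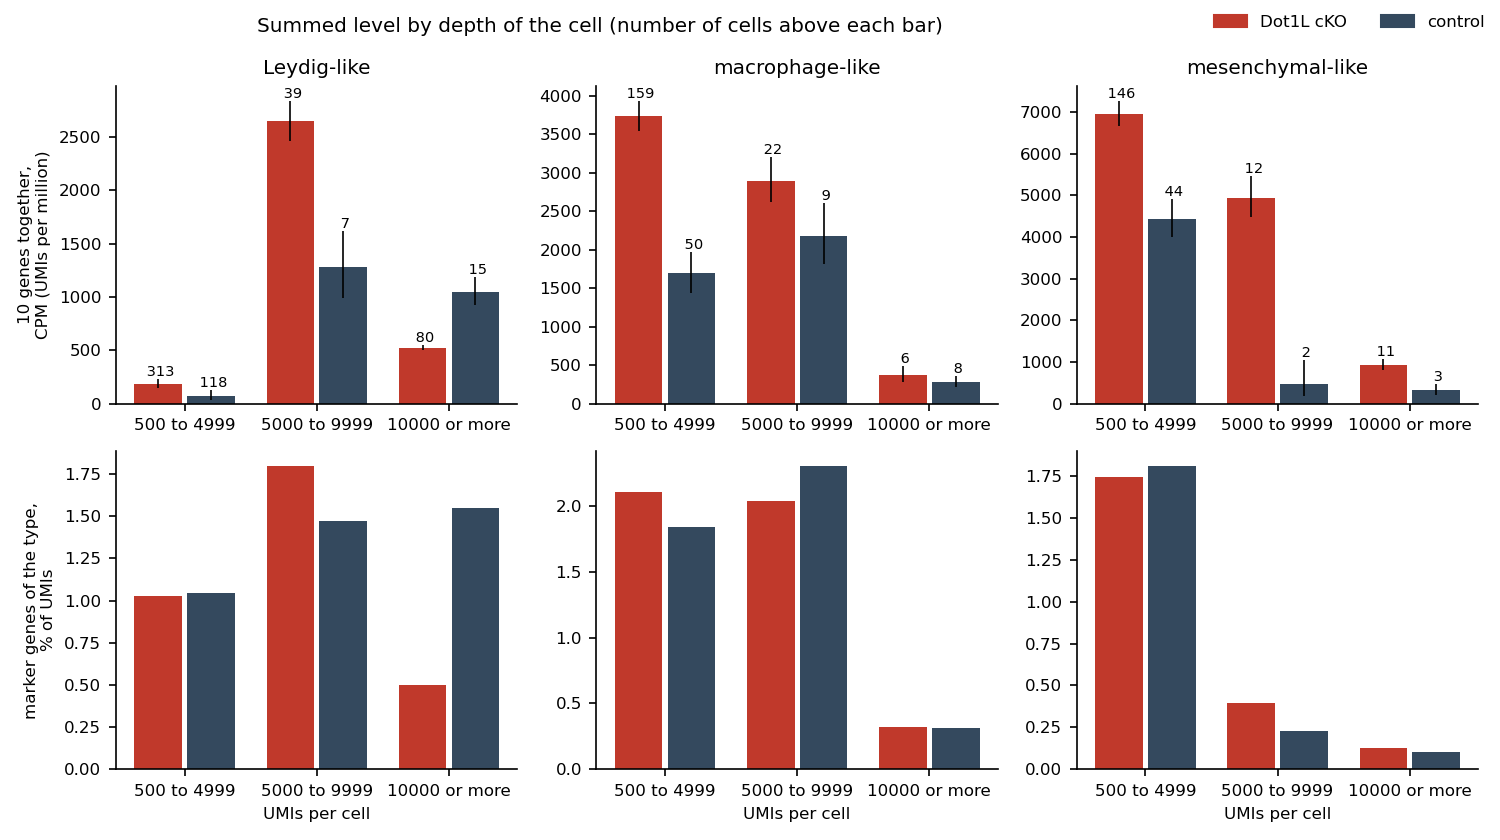
Upper row, CPM of the 10 genes together by the UMI count of the cell, with exact Poisson intervals and the number of cells above each bar; lower row, the share of UMIs from the marker genes of the type in the same cells. Dot1L cKO bars stand left of control bars in each of the 3 interstitial types. Macrophage-like cells of 10000 or more UMIs had 379 in cKO and 281 in control, against 3731 in cKO and 1693 in control below 5000 UMIs, and their own markers were lower as well.

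The same cut was applied to the other interstitial types. Macrophage-like cells of 10000 or more UMIs, 6 in cKO and 8 in control, held 21.2% of the UMIs in cKO and 59.1% in control. Without them the median ratio of the 10 genes in macrophage-like cells was 0.88, and 6 of 10 were 1.5-fold or more higher, where 18.1% of 2603 genes were higher and 9.45% lower, with a median of 0.09. Fos was then at 1005 CPM in cKO and 425 in control (log2 ratio 1.24), and Jun at 557 in cKO and 179 in control (1.64). Egr1 turned to −0.24, with 226 in cKO and 266 in control, and Ier3 to −0.074, with 139 in cKO and 146 in control. In mesenchymal-like cells the median was 0.66 without such cells, and 7 of 9 were 1.5-fold or more higher, where 17.7% of 1771 genes were higher and 9.94% lower, with a median of 0.05.

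**Figure D3:**
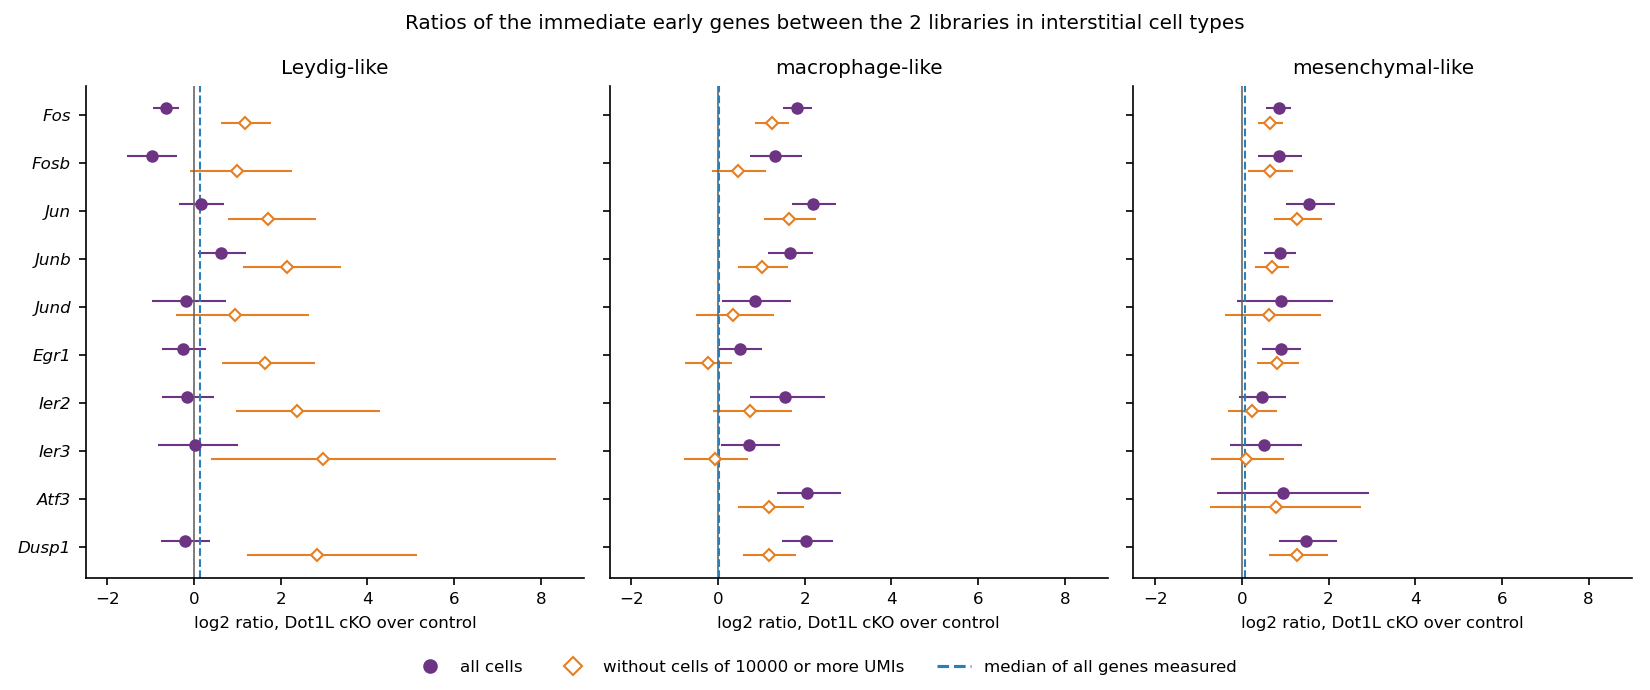
Log2 ratio of each gene, Dot1L cKO over control, in the 3 interstitial types, with all cells (circles) and without cells of 10000 or more UMIs (diamonds). Bars are exact conditional binomial intervals for counting error, the dashed line is the median of all genes measured, and a gene with no UMI in one of the libraries is left out. In Leydig-like cells the ratio of Fos moves across 0, from −0.65 with all cells to 1.17 without the deepest ones, while in mesenchymal-like cells Fos stays at 0.85 and 0.66.

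Summed over the 3 interstitial types, 1 of the 10 genes was 1.5-fold or more higher in cKO (Jun, 180 CPM in cKO and 105 in control, log2 ratio 0.77), against 16.9% of 11267 genes (15.1% were lower), and the median ratio was 0.14, against −0.02 for all genes. With the 3 types weighted equally the median was 0.85 and 8 of 10 were higher, where 18.9% of genes were higher and 9.38% lower, with a median of 0.08. The pooled value therefore depends on how the types are weighted.

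Counting cells in place of UMIs, after thinning each cell to 2000 UMIs, Fos was found in 69.5% (59.2 to 78.5) of 95 cKO and 58.3% (36.6 to 77.9) of 24 control mesenchymal-like cells. In macrophage-like cells it was in 62.6% (53.1 to 71.5) of 115 cKO and 35.3% (19.7 to 53.5) of 34 control cells. In Leydig-like cells it was in 38.2% (30.7 to 46.1) of 165 cKO and 17.1% (6.56 to 33.6) of 35 control cells. The unthinned shares were 68.6% in cKO and 55.1% in control mesenchymal-like cells, 65.2% in cKO and 40.3% in control macrophage-like cells, and 23.8% in cKO and 8.57% in control Leydig-like cells. As a background, Fos was found in 0.917% of 327 cKO and 0 of 209 control Sertoli-like cells, 0.597% of 335 cKO and 0.556% of 180 control spermatogonium-like cells, and 0.500% of 1199 cKO and 0.260% of 770 control early spermatocyte-like cells, thinned alike. It was found in 0 of 2965 cKO and 0 of 3251 control elongating spermatid-like cells, where 3 counts, taken as the floor, would be shares of cells with a UMI of 0.101% in cKO and 0.0923% in control. Before thinning, Sertoli-like cells had medians of 999 UMIs in cKO and 868 in control, elongating spermatid-like cells 6289 in cKO and 7498 in control, and mesenchymal-like cells 2160 in cKO and 1983 in control. So in all 3 interstitial types the cKO share was the higher one, including Leydig-like cells, where the sum of UMIs gave a lower Fos level. The mix of finer clusters among Leydig-like cells differed between the libraries, and its part in these shares was not tested.

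**Figure D4:**
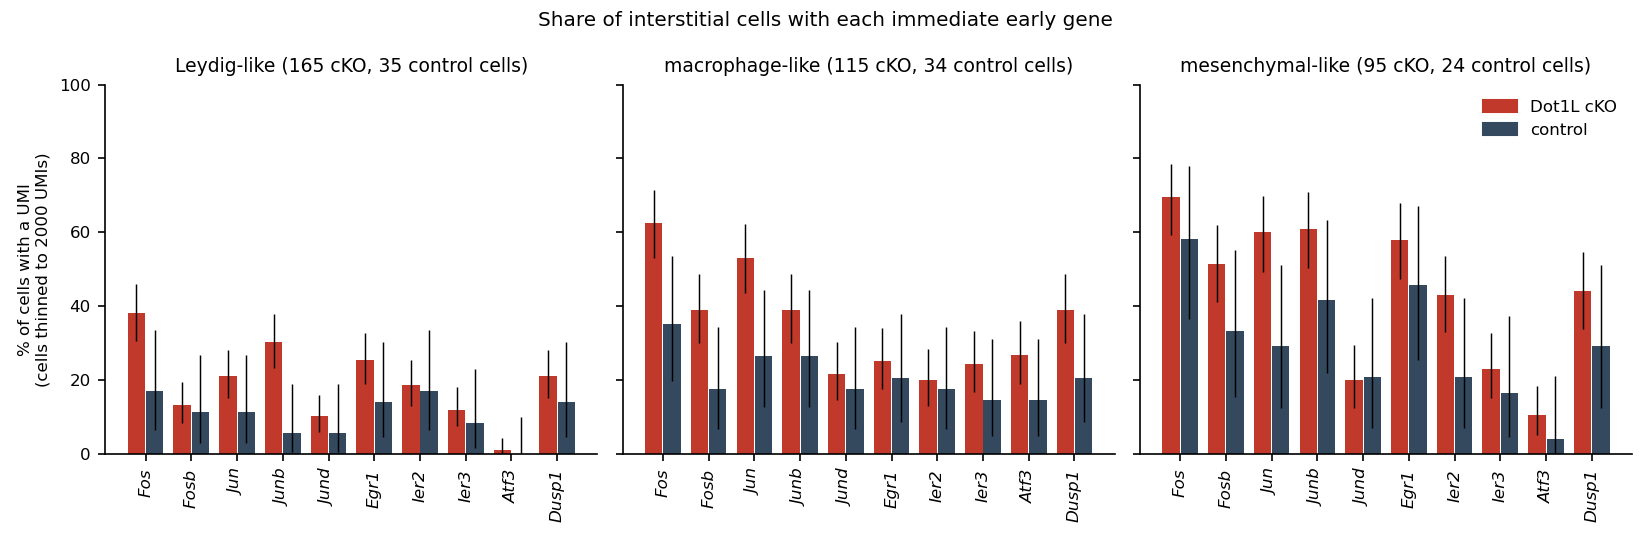
Share of cells with 1 or more UMIs of each gene in the 3 interstitial types after thinning to 2000 UMIs, Dot1L cKO left of control, with Clopper-Pearson intervals that cover counting error only. The cKO share is the higher one for Fos in all 3 types, and the intervals of the 24 to 35 control cells are wide.

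The genes were often found together. Of the thinned mesenchymal-like cells, 67.4% in cKO and 45.8% in control had 3 or more of the 10 genes. The shares were 63.5% in cKO and 35.3% in control macrophage-like cells, and 33.3% in cKO and 17.1% in control Leydig-like cells. The spread from cell to cell was wide. The 10 genes together had a median of 11 UMIs in cKO and 3 in control mesenchymal-like cells, with quartiles of 1 and 20 in cKO and 1 and 10.25 in control. In macrophage-like cells the medians were 5 in cKO and 1.5 in control, and in Leydig-like cells 1 in cKO and 0 in control.

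Divided more finely, at a clustering resolution of 2.0, the Leydig-like cells fell into a cluster with a higher and one with a lower level of the genes. The first had 95 cKO and 16 control cells, 2000 CPM of the 10 genes in cKO and 1713 in control, and 1.73% of UMIs from Leydig cell markers in cKO and 2.21% in control. The second had 337 cKO and 124 control cells, 143 in cKO and 47.4 in control, and markers at 0.244% in cKO and 0.760% in control. Values given for Leydig-like cells at that resolution come from the first cluster alone, since the second did not keep the name there. In the first cluster Fos had 540 in cKO and 589 in control, and Junb 319 in cKO and 155 in control. This cluster held 95 of the 432 cKO and 16 of the 140 control Leydig-like cells. The part of that mix in the shares of cells and in the values with equal cell weights was not tested.

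In Sertoli-like cells 5 genes were measured and all 5 were 1.5-fold or more higher in cKO, where 28.2% of 10272 genes were higher and 4.93% lower. Their median ratio was 1.33, against 0.27 for all genes. Jun had 14.1 CPM in cKO and 2.47 in control, a ratio of 2.51 (1.45 to 3.78) on 65 cKO and 8 control UMIs. Junb followed at 1.63, Ier2 at 1.33, and Jund and Dusp1 at 1.14 each. Within each of the 2 Sertoli-like clusters all 5 lay above control, with Jund at 24.3 in cKO and 14.1 in control in one and at 36.2 in cKO and 13.7 in control in the other. These cells were shallow, with median counts of 999 UMIs in cKO and 868 in control, and the same spermatid transcripts made up 5.00% of their UMIs in cKO and 11.1% in control. The free RNA estimate, here from interstitial and elongating spermatid-like cells, came to 25.6% of the Jund UMIs in cKO and 37.6% in control. For Jun it was 11.5% in cKO and 2.85% in control. Junb and Dusp1 also had the larger share in control, and Ier2 in cKO. Subtracting the estimate moved none of these ratios outside its counting interval. The part of free RNA beyond this estimate was not tested.

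In spermatogonium-like cells Jund was the single gene measured. Its log2 ratio of 0.17 (−0.26 to 0.59) was under 1.5-fold, as were the ratios of most genes there, 8.83% of 9735 being higher and 5.52% lower by that much. In early spermatocyte-like cells 2 of 4 measured genes were 1.5-fold or more higher, Jun at 1.19 (0.80 to 1.59) and Jund at 1.15 (0.48 to 1.86), where 11.2% of 13784 genes were higher and 3.26% lower. Egr1 (0.45) and Dusp1 (0.23) were not. With doublets kept, Jund in early spermatocyte-like cells was at −0.062. Within cluster 14, which both libraries shared with 537 cKO and 415 control cells, Jun had 12.3 in cKO and 5.01 in control.

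In mid to late spermatocyte-like cells 4 of 5 were higher, where 15.7% of 16128 genes were higher and 6.79% lower. The median was 0.87, against 0.09 for all genes. Jun was at 1.28 (1.06 to 1.51), Jund at 1.33 (0.71 to 1.99), Egr1 at 0.87 (0.27 to 1.49) and Junb at 0.80 (0.22 to 1.40). Dusp1, with the most UMIs beside Jun, was at −0.12 (−0.29 to 0.06). The libraries filled different clusters of this stage. Cluster 15 held 750 cKO and 25 control cells with Jun at 16.2 in cKO and 8.45 in control (9 control UMIs), cluster 3 held 25 cKO and 567 control cells with Jun at 17.9 in cKO and 7.52 in control, and cluster 9, with 696 cKO and 906 control cells, had Jun at 1.84 in cKO and 1.70 in control. The Jun ratio within cluster 9 was 0.11 (−0.85 to 1.03), while Junb was at 1.74 and Jund at 1.67 there.

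In round spermatid-like cells 2 of 4 measured genes were higher, Egr1 at 0.89 (0.19 to 1.60) and Junb at 0.71 (0.38 to 1.04), where 21.4% of 15987 genes were higher and 8.2% lower. Dusp1 (0.37) and Jund (0.14) were under 1.5-fold. Junb differed alike in the 2 clusters that both libraries shared, with 5.29 in cKO and 3.37 in control in cluster 8 and 6.88 in cKO and 3.81 in control in cluster 10. Egr1 was at 1.18 (0.35 to 2.07) in cluster 8 and at −0.17 (−1.75 to 1.29) in cluster 10, there on 7 cKO and 12 control UMIs.

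In elongating spermatid-like cells all 3 measured genes were higher, Jund at 1.17 (1.0003 to 1.34), Junb at 0.98 (0.66 to 1.31) and Dusp1 at 0.74 (0.44 to 1.04). Here 41.4% of 12544 genes were higher and 3.72% lower, and the median of all genes was 0.47, so the background was high. With libraries scaled by the median of gene ratios, Jund alone stayed at 1.5-fold or more (0.70), with Junb at 0.51 and Dusp1 at 0.27, where 15.4% of genes were higher and 13.2% lower. The libraries again filled different clusters, with 1277 cKO and no control cells in cluster 18. In cluster 20, shared by 514 cKO and 396 control cells, Jund had 41.6 in cKO and 26.3 in control, a ratio of 0.66 (0.40 to 0.93), Junb was at 0.76 and Dusp1 at 0.65. Thinned to 2000 UMIs, Jund was found in 4.76% of 2965 cKO and 2.03% of 3251 control cells. The 4 spermatid transcripts made up 19.8% of UMIs in cKO and 27.9% in control, which also sets the scale of every other gene.

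**Figure D5:**
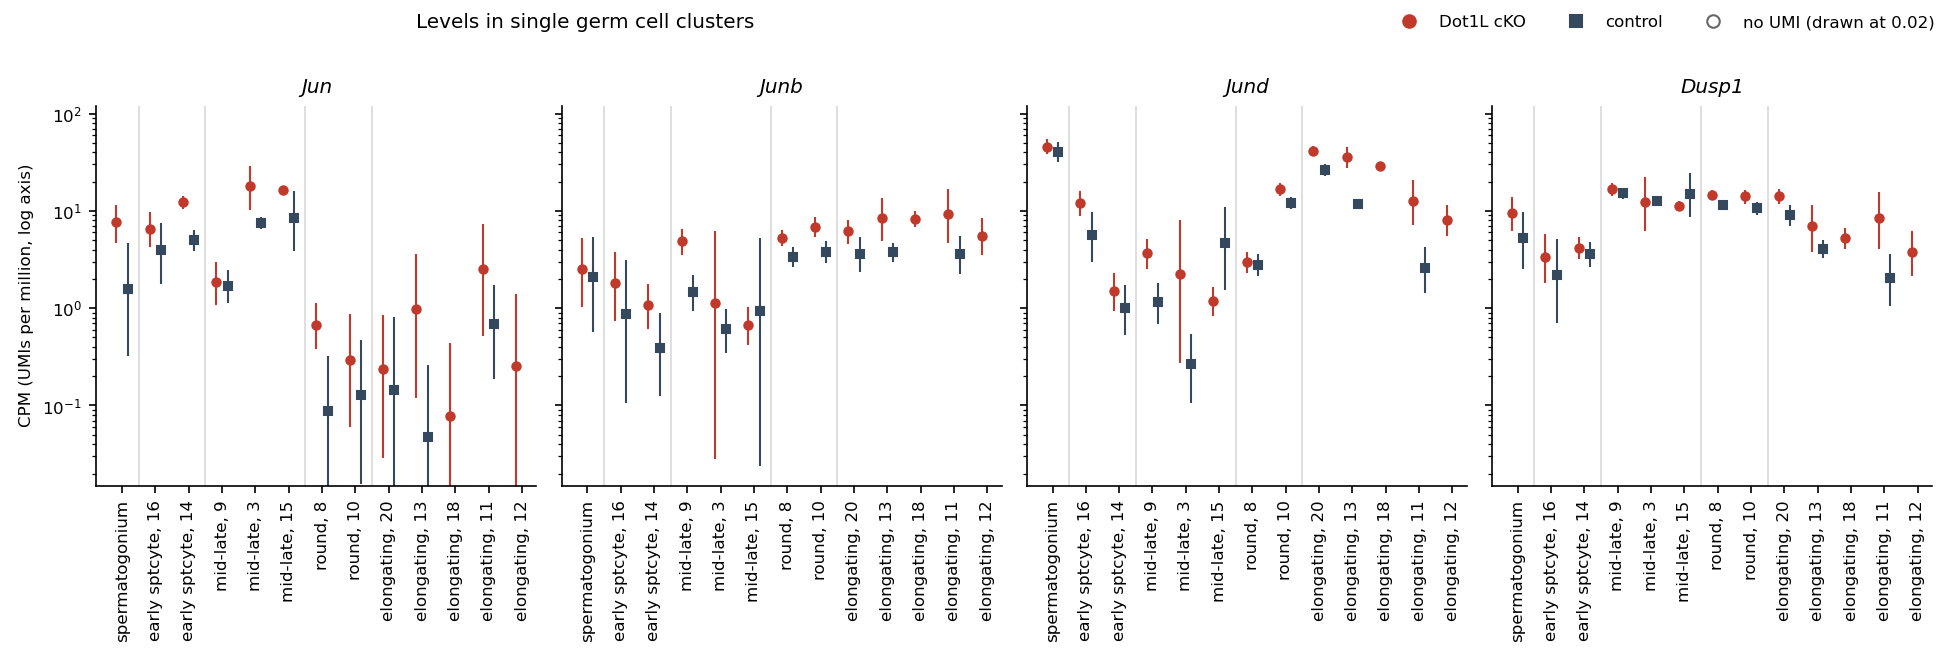
Level of Jun, Junb, Jund and Dusp1 in single germ cell clusters from spermatogonia to elongating spermatids, Dot1L cKO (circles) left of control (squares), with exact Poisson intervals for counting error on a log axis; a library with under 20 cells in a cluster is left out, and bars that meet the lower edge go on below it. Jun is highest in spermatocyte clusters 14, 3 and 15, where the cKO values are 12.3, 17.9 and 16.2 and the control values 5.01, 7.52 and 8.45, and Jund is highest in spermatogonia and in cluster 20.

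Other genes of the same response were followed in a list of 30 further immediate early genes. In macrophage-like cells 9 were measured, of which 8 were higher and 1 lower in cKO, with a median of 1.22. There 22.2% of all genes were higher and 18.2% lower. Zfp36, which destabilises AU-rich messengers, was at 1.76, the antiproliferative Btg2 at 1.54 and the transcription factor Klf2 at 1.45. In mesenchymal-like cells 4 of 9 were higher, against 19.3% of all genes, with a median of 0.55, and Zfp36 led them at 1.36. In Leydig-like cells 1 of 11 was higher and 5 were lower, with a median of −0.48, where 32.4% of all genes were higher and 20% lower. These are summed UMIs, mostly from cells of 10000 or more UMIs, and the list was not recomputed without those cells. In spermatocytes Egr4, an EGR family factor needed for male fertility in mice, had the largest ratio of the list. It had 11.2 CPM in cKO and 1.77 in control early spermatocyte-like cells (2.66), and 6.17 in cKO and 0.932 in control mid to late spermatocyte-like cells (2.73). Of the list, 3 of 8 were higher in the early stage, against 11.2% of all genes, and 3 of 13 in the mid to late stage, against 15.7%. In elongating spermatid-like cells 8 of 15 were, with a median of 0.87, where 41.4% of all genes were higher and their median was 0.47.

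Of 18 upstream genes (kinases and factors that switch immediate early genes on), 2 of 7 measured were higher and 1 lower in macrophage-like cells, with a median of 0.25, and 1 of 3 was higher in mesenchymal-like cells. Of all genes, 22.2% were higher and 18.2% lower in macrophage-like cells, and 19.3% higher and 12.2% lower in mesenchymal-like cells. Map2k2, a MAPK kinase, was 1.5-fold or more higher in cKO in every cell type but the mesenchymal-like cells (0.50). It had 153 CPM in cKO and 61.7 in control mid to late spermatocyte-like cells (1.31), 110 in cKO and 36.2 in control round spermatid-like cells (1.60), 114 in cKO and 43.5 in control macrophage-like cells (1.39) and 104 in cKO and 44.8 in control Sertoli-like cells (1.21). Crem, a CRE-binding factor, was at −0.71 in macrophage-like cells, with 128 in cKO and 209 in control.

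Over the 18 combinations of cell type and library, the levels of single genes were compared with the mean of the 10 by Pearson's r of log2 (CPM + 1), as a description over points that share 2 libraries. Each gene against the mean of the other 9 gave an r between 0.738 for Jund and 0.993 for Ier3, with Atf3 next to lowest at 0.844. Among 14995 other genes, Zfp36 came first at 0.988, then Ahnak, Ifitm2, Ifitm3 and Nrp1, down to 0.967. Zfp36 had 298 CPM in cKO and 116 in control mesenchymal-like cells, 286 in cKO and 84.3 in control macrophage-like cells, and 36.4 in cKO and 74.97 in control Leydig-like cells. For Fos alone Zfp36, Trps1 and Ahnak came first (0.980 to 0.982), and for Jund alone Litaf, Ncoa7 and Tpm3 (0.944 to 0.966).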

How the data were processed

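Cells of whole mouse testis were profiled with a 3′ droplet kit in 1 library per genotype. The files hold raw UMI counts per gene and barcode, which the authors made with Cell Ranger (version 7.0.0 per the file headers); build mm10 and Seurat 4.1.0 are named in the submitters' processing notes. How barcodes were filtered before deposit is not given in the sources used here.

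Barcodes with at least 500 UMIs and 300 genes and at most 10% mitochondrial UMIs were kept, which removed 2150 cKO and 1510 control barcodes for mitochondrial UMIs. Doublets were scored with Scrublet in scanpy 1.11.5. Its automatic threshold marked 0 cells, so the 80th percentile of simulated doublets was used. Cells were clustered with the Leiden method (2000 variable genes centred within each library, 30 components, 20 neighbours, resolution 1). The 10 genes were left out of it, as were 109 further features, namely histone, transition protein and protamine genes and Dot1l. Clusters were named from 13 marker lists by a rule set after the clusters were seen. UMIs were summed per cell type and library. Intervals came from SciPy 1.17.1, at 95%, and cover counting error only. Ratio code was tested on simulated counts.

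The 10 genes, companion lists and marker lists were chosen with earlier results of these data known. From each companion list, up to 4 genes with the largest absolute ratio in a cell type could be named; genes most like the 10 were ranked by Pearson's r. Map2k2 and Zfp36 were followed through further cell types after their values were seen. With 1 library per genotype no model was fitted.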

Additional observations from a re-analysis of the deposited data

Results flagged for a closer look

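Fos and Fosb differed between the libraries in opposite directions in 2 interstitial cell types. The log2 ratio of cKO over control for Fos was 1.83 in macrophage-like cells and −0.65 in Leydig-like cells, and for Fosb it was 1.32 in macrophage-like cells and −0.98 in Leydig-like cells. The difference between the cell types was not tested, since each genotype has 1 library. Without cells of 10000 or more UMIs, both genes were above 0 in both types, with Fos at 1.24 in macrophage-like and 1.17 in Leydig-like cells.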

How the results depend on the processing

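For 60 gene ratios, each recomputed under several alternatives, 712 recomputed values stayed within the counting interval and 106 moved outside it. A further 10 values had the opposite sign to a main ratio of 1.5-fold or more. These 10 belong to Fos and Fosb in Leydig-like, Ier3 in macrophage-like and Jund in early spermatocyte-like cells. Leaving out the shared barcodes or subtracting the free RNA estimate moved none. Alternatives on cell depth, equal weights, shared barcodes, centring and low-RNA clusters were chosen after seeing the data. The median ratio of the 10 genes in Leydig-like cells was 0.99 with types set by marker score, 0.24 at resolution 2.0, 0.74 with a 20% mitochondrial limit, 1.71 without cells of 10000 or more UMIs and 1.34 with cells weighted equally. In the same order the pooled interstitial median was 0.75, 0.82, 0.83, 0.85 and 0.96, and 0.85 with types weighted equally. At resolution 2.0 the Leydig-like cells were only the 95 cKO and 16 control cells of the cluster with the higher level. Fos in Leydig-like cells turned to 0.65 by marker score, 0.41 with the 20% limit, 1.17 without the deepest cells and 0.65 with equal weights, and Fosb to 0.43, 0.29, 0.99 and 0.66. Ier3 in macrophage-like cells turned to −0.074 without the deepest cells, and Jund in early spermatocyte-like cells to −0.062 with doublets kept. Median-of-ratios scaling gave medians of 0.51 in elongating spermatid-like and 1.06 in Sertoli-like cells, and no UMI minimum gave 1.06 in round spermatid-like cells. Thinned to 1000 UMIs, Fos was in 14.4% of cKO and 6.17% of control Leydig-like cells and 46.4% of cKO macrophage-like cells, and unthinned in 23.8% of cKO Leydig-like cells. Causes were not tested. No paired analysis was possible because each genotype has 1 library and no test was made. Few control interstitial cells limit the precision.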

Other observations

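A list of 15 heat shock and dissociation genes is given beside the 10 genes. In macrophage-like cells 2 of 12 measured were 1.5-fold or more higher in cKO, against 22.2% of all genes, with a median of 0.29. In Leydig-like cells 3 of 13 were higher and 7 lower, with a median of −0.69, where 32.4% of all genes were higher and 20% lower. These Leydig-like counts rest on summed UMIs, of which cells of 10000 or more UMIs held 83.4% in cKO and 55.2% in control. This list was not recomputed without those cells. The small heat shock protein gene Hspb1 had 424 CPM in cKO and 30.9 in control Sertoli-like cells, and 11.1 in cKO and 1.56 in control elongating spermatid-like cells. Hspe1, a mitochondrial co-chaperonin gene, had 35.2 in cKO and 4.12 in control round spermatid-like cells. Hsph1, which encodes a chaperone of the HSP110 family, had 15.8 in cKO and 38.01 in control round spermatid-like cells.

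Of 10 ATF4 stress genes, 1 of 3 measured was higher in macrophage-like cells, with a median of −0.17, and none of 6 was in spermatogonium-like cells, with a median of 0.09. Of all genes, 22.2% were higher in macrophage-like and 8.83% in spermatogonium-like cells. An unnamed cluster with hemoglobin genes among its leading genes held 2502 cKO and 5 control cells, and the 10 immediate early genes had 37.1 CPM in its cKO cells. Another unnamed cluster led by hemoglobin genes held 1380 cKO and 2918 control cells. There the 10 genes had 51.4 CPM in cKO and 33.5 in control.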
